A study of Mus musculus with 21 samples.

Results

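Krüppel-like factors are DNA-binding proteins with zinc fingers, and 8 of their genes, Klf2, Klf3, Klf4, Klf6, Klf7, Klf9, Klf10 and Klf13, were followed through endothelial cells of the adult mouse. They were taken by name, as 8 of 24176 genes in the bulk RNA table and 8 of 32285 genes in the single-cell table. The cells came from C57BL/6J mice aged 2 to 4 months with no stated allele or treatment. After perfusion, whole brain, lung or liver was digested with enzymes, and myelin was spun out of the brain digest but not of the others. Live cells that were CD31+, PDGFRβ- and CD45- were sorted as endothelium. Bulk RNA was measured in 3 brain, 3 lung and 3 liver libraries and compared between tissues. Brain endothelium was also measured cell by cell in 1 library, which was used to place each gene along the vessel tree.

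Members of the family share a C-terminal set of zinc fingers that binds CACCC and GC-rich sequences, and they differ in the N-terminal part that recruits activators or repressors. In endothelium, laminar blood flow raises KLF2 and KLF4 through a kinase cascade that ends at MEF2 factors, and both proteins are known to raise anticoagulant and vasodilator genes and to lower inflammatory ones. KLF6 responds to injury, KLF10 is an early target of TGF-β, KLF9 responds to glucocorticoids and KLF3 is mainly a repressor that recruits CtBP.

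A promoter window was found in RefSeq (GRCm38.p6) for 7 of the 8 genes, covering the 250 bases before the annotated start of transcription. The windows of Klf2, Klf4, Klf6 and Klf7 are shown because the differences between tissues or vessel gates described further on turn on these genes. Each is printed 5′ to 3′ on the strand of its gene. In Klf2, at chr8:72318812-72319061 on the plus strand, capitals mark a match to the MEF2 motif. In Klf4, at chr4:55532476-55532725 on the minus strand, they mark GGGCGG or its reverse complement. In Klf6, at chr13:5861239-5861488 on the plus strand, they mark CCAAT or its reverse complement. In Klf7, at chr1:64121390-64121639 on the minus strand, they mark CACCC on the opposite strand.
Klf2: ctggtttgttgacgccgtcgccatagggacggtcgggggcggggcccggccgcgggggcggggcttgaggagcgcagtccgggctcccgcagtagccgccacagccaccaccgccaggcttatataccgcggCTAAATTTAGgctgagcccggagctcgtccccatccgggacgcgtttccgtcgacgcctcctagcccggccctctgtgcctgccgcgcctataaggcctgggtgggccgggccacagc
Klf4: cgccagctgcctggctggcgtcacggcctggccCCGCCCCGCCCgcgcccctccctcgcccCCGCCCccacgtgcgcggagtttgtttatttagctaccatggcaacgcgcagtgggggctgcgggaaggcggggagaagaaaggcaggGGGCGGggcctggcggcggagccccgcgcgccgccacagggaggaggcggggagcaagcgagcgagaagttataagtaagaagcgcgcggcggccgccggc
Klf6: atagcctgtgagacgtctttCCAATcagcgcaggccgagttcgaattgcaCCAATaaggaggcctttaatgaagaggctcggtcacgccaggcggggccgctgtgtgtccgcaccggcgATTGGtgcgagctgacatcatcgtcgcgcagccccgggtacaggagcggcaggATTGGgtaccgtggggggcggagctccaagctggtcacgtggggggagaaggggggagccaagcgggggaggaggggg
Klf7: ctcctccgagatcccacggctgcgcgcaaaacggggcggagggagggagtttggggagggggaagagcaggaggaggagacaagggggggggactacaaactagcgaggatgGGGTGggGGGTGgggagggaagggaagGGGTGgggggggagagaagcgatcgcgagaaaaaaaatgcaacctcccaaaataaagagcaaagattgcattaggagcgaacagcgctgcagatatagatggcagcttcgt

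All 9 motifs were searched on both strands in 32851 windows of the same length, and the motif put in capitals in each window was picked after the matches were seen. Klf2 held the only MEF2 match among the 7 windows, from 118 to 109 bases before the start, and MEF2 matched in 2.92% of all windows. The GC box GGGCGG matched 4 times in Klf4, with a pair of these matches sharing 1 base, and in 32.7% of all windows at least once. It matched 6 times in Klf3 and was also found in Klf2, Klf6, Klf7 and Klf13. CCAAT matched 4 times in Klf6, 3 times in Klf9 and 2 times in Klf13, and in 33.8% of all windows. CACCC matched 3 times in Klf7, 5 times in Klf3 and 1 time each in Klf2, Klf9 and Klf13, and in 52.0% of all windows. The AP-1 motif TGANTCA matched in Klf9 alone among the 7, against 6.75% of all windows, and overlapped a CACCC match there by 2 bases. TATAAA (12.4% of all windows), TGACGTCA (1.55%) and the CArG box (1.47%) matched in none of the 7. The short ETS core GGAAG matched in Klf3, Klf4 and Klf7 and in 64.1% of all windows. The share of G and C ran from 59.2% in Klf7 and 59.6% in Klf9 to 78.4% in Klf3, beside a median of 52.4% and an upper quartile of 61.2% over all windows, so Klf7 and Klf9 lay below that quartile and the other 5 above it. A match is a string of letters and was not tested as a binding site.

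The 9 bulk libraries held 2992101 to 25690571 counts, the lowest in lung replicate 2. The ribosomal precursor Rn45s took 12.2% to 28.8% of the counts of a library. The 10 pan-endothelial genes summed to between 5871 and 13874 CPM (a gene's count scaled to the library's total of deposited counts) in every library, and Pecam1, which encodes the sorted antigen CD31, lay between 605 and 1783 CPM. Other cell types were visible at lower levels. The 8 leukocyte markers summed to 83.2 to 123 CPM in lung and to at most 6.35 CPM in brain and liver, where Ms4a1 and Cd3d were at 0. The 6 lung epithelial markers reached 305 to 1797 CPM in lung and at most 5.73 CPM elsewhere, and the 6 hepatocyte markers 234 to 588 CPM in liver and at most 2.48 CPM in lung. Most of the lung epithelial sum in the lung libraries was Scgb1a1, at 286, 1772 and 590 CPM. In brain the hepatocyte sum was Ttr alone, a gene it shares with the choroid plexus epithelium list. The 6 choroid plexus markers, Enpp2 and Kl among them, summed to 189 to 1694 CPM in brain, highest in brain replicate 2, against 59.8 to 76.7 CPM in lung and 31.9 to 67.8 CPM in liver, with none at 0 in every library. The 6 erythroid markers summed to 47.0 to 321 CPM in brain, highest in brain replicate 3, 16.7 to 89.8 CPM in lung and 2.26 to 29.3 CPM in liver. Their part in the values of the Krüppel-like factors was not tested. In bulk samples, fewer cells of a type and less RNA per cell cannot be told apart.

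Brain and lung endothelium held more transcript of several Krüppel-like factors than liver endothelium did. Klf2, Klf4 and Klf6 were higher in brain than in liver. Klf2, Klf4, Klf7 and Klf13 were higher in lung than in liver, and Klf7 was lower in brain than in lung. Summed over the 8 genes, brain held 2575 to 2622 CPM, lung 2917 to 3503 CPM and liver 1165 to 1522 CPM, with no overlap between tissues. That order is not particular to these genes. The 10 pan-endothelial genes summed to 7641 to 8331 CPM in brain, 10017 to 13874 in lung and 5871 to 6076 in liver. CPM sums carry no TMM scaling. A gene was called where the edgeR quasi-likelihood adjusted p was under 0.05 and the log2 fold change was 1 or more in size. All 8 genes passed the filter on low counts. Between brain and lung, 0 members were called higher and 1 lower, beside 5.05% and 7.25% of the 13216 genes tested, or 12.3% either way. Between brain and liver, 3 members were called higher and 0 lower, beside 7.45% and 8.72%, or 16.2% either way. Between lung and liver, 4 members were called higher and 0 lower, beside 8.04% and 7.02%, or 15.1% either way. Every comparison shares libraries with the other two, so these counts are not independent of each other.

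Libraries of brain and lung did not overlap for 3 members, Klf3, Klf4 and Klf7, all lower in brain, beside 33.8% of all genes tested. Brain and liver did not overlap for 4 members, Klf2, Klf4, Klf6 and Klf13, all higher in brain, beside 33.2%. Lung and liver did not overlap for 6 members, all but Klf6 and Klf10 and all higher in lung, beside 34.5%. The median log2 fold change of the 8 genes was -0.33 for brain over lung, 0.43 for brain over liver and 1.10 for lung over liver, while the median over all genes tested was 0, 0.01 and 0.

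**Figure D1:**
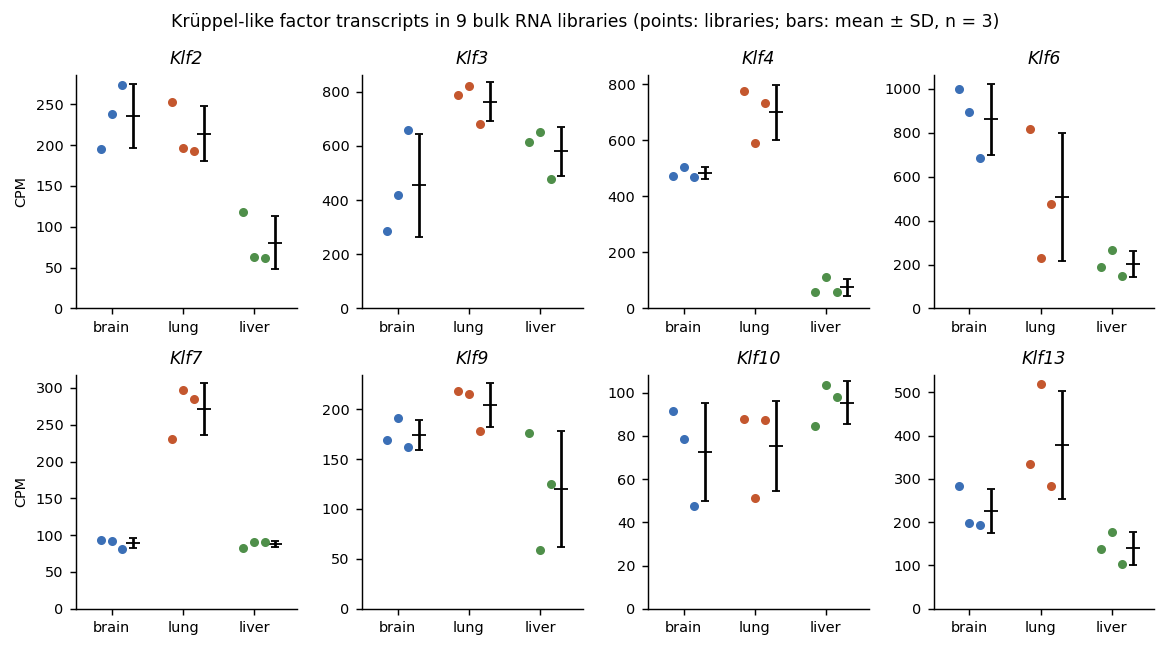
Level of each Krüppel-like factor in CPM (vertical axis, from 0) in the 3 brain, 3 lung and 3 liver libraries, each point 1 library and each bar the mean ± SD of a tissue (n = 3). Klf2 and Klf4 sit lowest in the 3 liver libraries, Klf7 sits highest in the 3 lung libraries, and Klf10 overlaps between all tissues.

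Klf2 and Klf4 are the flow-responsive members. Klf2 stood at 196, 239 and 274 CPM in the brain libraries, at 253, 197 and 193 CPM in lung and at 118, 62.4 and 61.8 CPM in liver. Brain and lung overlapped, and every liver library lay under every other library. Brain exceeded liver by 1.39 on the log2 scale (SE 0.32, edgeR adjusted p = 0.00759), and lung exceeded liver by 1.19 (SE 0.31, edgeR adjusted p = 0.0212). Between brain and lung the log2 fold change was 0.20 (SE 0.31, edgeR adjusted p = 0.749). The call of Klf2 between lung and liver was lost without lung replicate 1 (edgeR adjusted p = 0.0758), without liver replicate 2 (0.0553) and without liver replicate 3 (0.0827, log2 fold change 0.98).

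Klf4 showed the widest gap of the 8 genes between liver and the other tissues. It stood at 471, 507 and 471 CPM in brain, at 777, 591 and 734 CPM in lung and at 58.2, 112 and 58.7 CPM in liver. No tissues overlapped: the lowest lung library exceeded the highest brain library, and all 6 exceeded liver. Brain was 5.31-fold above liver (log2 2.41, SE 0.34, edgeR adjusted p = 0.000222) and lung was 7.41-fold above liver (log2 2.89, SE 0.35, edgeR adjusted p = 7.34e-05). The log2 fold change of brain over lung, -0.48 (SE 0.32), did not pass the test (edgeR adjusted p = 0.390) although the libraries were apart. Over 15 other settings the log2 difference between brain and liver ran from 2.18 to 2.99 and that between lung and liver from 2.66 to 3.46, and both calls held in all 15.

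Klf6, known as an injury-responsive activator, was high in brain and varied widely in lung. Brain libraries held 1000.2, 897 and 686 CPM, lung libraries 815, 232 and 476 CPM and liver libraries 188, 265 and 150 CPM. The lowest lung library was lung replicate 2, the one with the fewest counts, and it lay below a liver library. Brain was 3.60-fold above liver (log2 1.85, SE 0.40, edgeR adjusted p = 0.00582), a call that held in all 15 other settings. Lung over liver, at log2 1.03 (SE 0.40), was not called (edgeR adjusted p = 0.0975). That comparison became a call without lung replicate 2 (edgeR adjusted p = 0.0305) and without liver replicate 2 (0.0324). Brain over lung was 0.82 (SE 0.39, edgeR adjusted p = 0.210) and became a call only without lung replicate 1, at 1.33 (edgeR adjusted p = 0.0484).

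Klf7, a member best known from neurons and adipose tissue, marked lung. It stood at 93.8, 91.9 and 81.1 CPM in brain, at 231, 297 and 285 CPM in lung and at 82.9, 90.6 and 90.5 CPM in liver. All 3 lung libraries lay above the other 6, and brain and liver overlapped within a narrow range. Brain was 2.95-fold below lung (log2 -1.56, SE 0.28, edgeR adjusted p = 0.00225), and lung was 2.59-fold above liver (log2 1.37, SE 0.28, edgeR adjusted p = 0.00466). The 15 other settings kept both calls, with log2 values from -1.68 to -1.46 and from 1.27 to 1.62. Brain against liver gave -0.19 (SE 0.28, edgeR adjusted p = 0.724).

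Klf13, a factor also known for T cell and heart development, was highest in lung. Its level was 285, 198 and 194 CPM in brain, 334, 519 and 283 CPM in lung and 138, 178 and 103 CPM in liver. The liver libraries were lowest, and the lowest lung library lay just under the highest brain library. Lung was 2.24-fold above liver (log2 1.16, SE 0.35, edgeR adjusted p = 0.0374). The call was lost without lung replicate 1 (edgeR adjusted p = 0.0562), lung replicate 2 (0.165), liver replicate 1 (0.107) or liver replicate 3 (0.125), and when lung and liver were fitted without brain (0.0599). Brain over liver was 0.45 (SE 0.34, edgeR adjusted p = 0.441) and brain over lung -0.71 (SE 0.34, edgeR adjusted p = 0.208).

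Klf3, Klf9 and Klf10 were not called in any of the 3 comparisons. Klf3, the CtBP-recruiting repressor, held 285, 420 and 660 CPM in brain, 787, 820 and 682 CPM in lung and 613, 651 and 478 CPM in liver. Brain replicate 3 stood well above the other brain libraries, and all 3 brain libraries lay under lung (log2 -0.68, SE 0.32, edgeR adjusted p = 0.198). Without brain replicate 3 that difference was -1.10 and passed (edgeR adjusted p = 0.0451).

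Klf9, the glucocorticoid-responsive member, held 169, 191 and 162 CPM in brain, 218, 215 and 178 CPM in lung and 176, 59.2 and 125 CPM in liver. Liver spread over a wider range than the other tissues, and the highest liver library fell among those of brain. The log2 fold changes were -0.18 for brain over lung, 0.41 for brain over liver and 0.58 for lung over liver, with edgeR adjusted p = 0.787, 0.453 and 0.253.

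Klf10, the TGF-β early response gene, held 91.7, 78.4 and 47.7 CPM in brain, 87.7, 51.1 and 87.2 CPM in lung and 84.4, 104 and 98.1 CPM in liver. Its libraries overlapped between all tissues, and its highest mean was in liver. Brain over lung was -0.01 (SE 0.37), brain over liver -0.62 (SE 0.37) and lung over liver -0.61 (SE 0.37), with edgeR adjusted p = 0.996, 0.303 and 0.314.

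**Figure D2:**
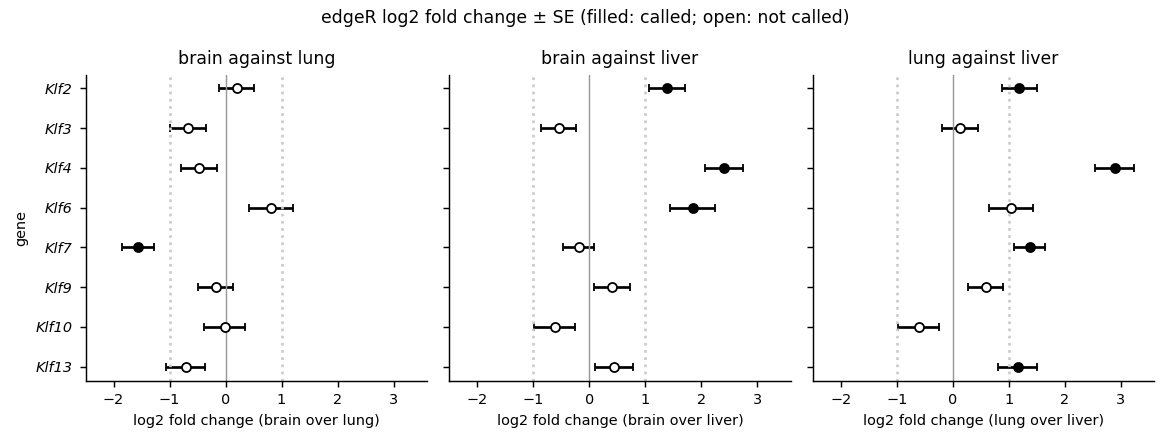
edgeR log2 fold change ± SE (horizontal axis) of each of the 8 genes (vertical axis) for brain over lung, brain over liver and lung over liver, with filled points for called genes and dotted lines at a log2 fold change of 1 either way. The filled points are Klf7 for brain over lung, Klf2, Klf4 and Klf6 for brain over liver, and Klf2, Klf4, Klf7 and Klf13 for lung over liver.

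Immediate-early genes, which enzymatic digestion can switch on and among which Klf2, Klf4 and Klf6 are often counted, moved with the tissues. The summed level of 16 such genes, none of them a member, was 3310 to 4271 CPM in brain, 14616 to 18438 CPM in lung and 853 to 1492 CPM in liver. Between brain and liver 11 of the 16 were called higher and 1 lower (median log2 fold change 1.95), and between lung and liver 15 were called higher and 0 lower (median 3.68). Between brain and lung 0 were called higher and 9 lower (median -1.60). Among all genes tested, 16.2% were called either way between brain and liver, 15.1% between lung and liver and 12.3% between brain and lung. Egr1, a zinc finger factor of this class, stood at 5390 ± 1046 CPM in lung, 351 ± 73.2 CPM in brain and 107 ± 14.9 CPM in liver (SD over 3 libraries), with every pair of tissues called (largest edgeR adjusted p = 0.000347). From brain to lung, mean Klf4 went from 483 to 700 CPM, with no overlap between libraries, while Klf2 went from 236 to 214 CPM and Klf6 from 861 to 508 CPM, both with overlap. None of these 3 was called between brain and lung. The part of digestion in the levels of Klf2, Klf4 and Klf6 was not tested.

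Of the other KLF and SP family genes, 11 of 18 passed the filter. Between brain and lung 2 were called higher and 0 lower (median log2 fold change 0.03), between brain and liver 4 and 0 (median 1.20), and between lung and liver 2 and 0 (median 1.10). The shares of all genes tested called either way were 12.3%, 16.2% and 15.1%. Klf12, a repressor that binds CtBP, held 396 ± 84.3 CPM (brain), 84.0 ± 36.1 CPM (lung) and 31.6 ± 12.2 CPM (liver; SD, n = 3). It was higher in brain than in lung (log2 2.31, SE 0.43, edgeR adjusted p = 0.00294) and than in liver (log2 3.41, SE 0.45, edgeR adjusted p = 0.000126). Klf11, a TGF-β-inducible relative of Klf10, stood at 112 ± 6.88 CPM in brain, 217 ± 39.9 CPM in lung and 29.0 ± 14.3 CPM in liver. It was called higher than liver in brain (log2 1.80, SE 0.35, edgeR adjusted p = 0.00248) and in lung (log2 2.71, SE 0.36, edgeR adjusted p = 0.000175). Sp3, a broadly expressed GC-box factor, was higher in brain than in lung (log2 1.16, edgeR adjusted p = 0.0147) and liver (log2 1.04, edgeR adjusted p = 0.0211). Klf8 was also called higher than liver in brain (log2 5.74, SE 1.48, edgeR adjusted p = 0.0164) and in lung (log2 5.01, SE 1.44, edgeR adjusted p = 0.0315). It was below 10 CPM in every library, so these calls rest on low counts. These 18 other family genes, without the members, summed to 1310 to 1429 CPM in brain, 909 to 984 CPM in lung and 522 to 612 CPM in liver.

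Among genes known to act upstream of Klf2 and Klf4, 1 or 2 of 13 were called in each comparison, beside 12.3%, 16.2% and 15.1% of all genes tested, so the counts are no result about the list. These 13 genes covered the flow-sensing kinase cascade, its MEF2 factors and the cerebral cavernous malformation complex that restrains the cascade. Piezo1, Hdac5 and Hdac7 were also among the 13. Between brain and lung 0 were called higher and 1 lower. The counts were 1 and 0 between brain and liver, and 1 and 1 between lung and liver. The medians were -0.05, 0.21 and 0.40 on the log2 scale. Piezo1, a mechanically gated channel, was higher in brain than in liver (167 ± 30.6 against 71.9 ± 5.36 CPM, SD, n = 3; log2 1.02, edgeR adjusted p = 0.0277). Mef2c was lower in lung than in liver (87.8 ± 21.4 against 196 ± 20.0 CPM; log2 -1.42, edgeR adjusted p = 0.00806). Hdac7, a deacetylase that represses MEF2, was higher in lung (457 ± 130 CPM) than in brain (182 ± 60.2 CPM; edgeR adjusted p = 0.00937) and liver (147 ± 15.8 CPM; edgeR adjusted p = 0.00524). Of 9 corepressor genes, among them Ctbp1, Ctbp2 and Sin3a, 0 were called between brain and lung and 1 was called lower in each comparison with liver.

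Genes that KLF2 or KLF4 are known to raise did not move together between tissues. Of 10, brain against lung had 3 called higher and 3 lower, brain against liver 2 and 1, and lung against liver 3 and 2. Over all genes tested, 12.3%, 16.2% and 15.1% were called either way. Nos3, the endothelial nitric oxide synthase, stood at 107 ± 17.6 CPM in brain, 11.3 ± 4.46 CPM in lung and 43.7 ± 6.18 CPM in liver (SD, n = 3). Nos3 was lower in lung than in liver (log2 -2.19, SE 0.44, edgeR adjusted p = 0.00401). Its brain libraries (92.7 to 127 CPM) lay above those of liver (38.0 to 50.2 CPM). Thbd, the anticoagulant receptor thrombomodulin, was higher in lung (2905 ± 811 CPM) than in brain (459 ± 158 CPM) and liver (414 ± 230 CPM), at edgeR adjusted p = 0.000169 and 0.00015. Brain and liver did not differ in Thbd beyond the spread (log2 0.00, SE 0.32). Cav1 and Palmd were higher in both brain and lung than in liver, with Cav1 at 525 ± 45.0, 1712 ± 180 and 70.2 ± 46.9 CPM and Palmd at 463 ± 49.5, 122 ± 14.5 and 7.05 ± 3.09 CPM in brain, lung and liver.

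Of 8 genes that these factors are known to lower, 7 were tested. Between brain and lung 1 was called higher and 2 lower, between brain and liver 1 and 1, and between lung and liver 2 and 1. Beside these stand 12.3%, 16.2% and 15.1% of all genes tested, called either way. Edn1, the vasoconstrictor endothelin, was lowest in liver at 22.1 ± 13.4 CPM, against brain at 274 ± 80.1 CPM and lung at 126 ± 50.6 CPM (SD, n = 3). It was called higher in brain (log2 3.52, SE 0.48, edgeR adjusted p = 0.000171) and lung (log2 2.36, SE 0.46, edgeR adjusted p = 0.00339) than in liver. Thbs1, the matrix protein thrombospondin, was lower in brain than in liver (2.81 ± 1.78 against 59.6 ± 36.7 CPM; log2 -4.63, edgeR adjusted p = 0.000718). Vcam1, a leukocyte adhesion receptor, was lower in lung than in liver (mean 24.1 against 75.6 CPM; log2 -1.87, SE 0.45, edgeR adjusted p = 0.0118). Of 8 glucocorticoid-responsive genes, the class to which Klf9 belongs, 0 were called higher and 2 lower between brain and lung. The counts were 2 and 1 between brain and liver and 3 and 1 between lung and liver, beside the same shares of all genes. Per1, a clock gene of that list, was higher in lung (150 ± 21.6 CPM) and brain (76.3 ± 23.5 CPM) than in liver (10.3 ± 9.34 CPM), while Klf9 was called in neither comparison. Whether KLF2, KLF4 or glucocorticoids set the levels of these genes was not tested.

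The genes most like each member over the 9 bulk libraries were found by Pearson's r of log2(CPM + 1) among the 4422 genes tested whose mean log2 CPM reached 5. These values are a description, since the libraries share 3 tissues and genes were picked for their r. Klf7 was nearest to Gpx3 (r = 0.997), a secreted glutathione peroxidase at 170 CPM in lung and under 1 CPM in brain and liver, and to the protocadherin Pcdhac2 (r = 0.996). Klf4 was nearest to the T-box factor Tbx3 (r = 0.991), at 216, 764 and 1.69 CPM in brain, lung and liver, and to Stmn2 (r = 0.982). Klf2 was nearest to Ly6c1 (r = 0.970), a surface antigen of capillary and arterial endothelium, at 1367, 931 and 13.8 CPM, and to Dock9 (r = 0.965). For Klf6 they were Ikbkb (0.977) and Sptbn1 (0.965), for Klf9 Csrnp2 (0.987) and Zfp532 (0.978), and for Klf13 St3gal2 (0.963) and Etl4 (0.951). Klf3 (Gm13826, 0.948, and Grap, 0.944) and Klf10 (Ice1, 0.957, and Magt1, 0.925) had lower maxima.

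The single-cell library held 9405 barcodes with a median of 4393 UMIs (unique molecular identifiers, a count of molecules). After barcodes with fewer than 2 pan-endothelial markers, with 10% or more hemoglobin, or with 3 or more markers of another cell type were left out, 9040 remained. Of these, 4587 fell in a vessel gate by their markers: 1441 arterial, 1196 venous, 1799 capillary and 151 fenestrated. The fenestrated gate held Plvap, a diaphragm protein of leaky capillaries, at 31.8 UMIs per 10000 and the barrier lipid transporter Mfsd2a at 0.31. Mfsd2a stood at 5.05 in the capillary gate, 4.28 in the arterial and 3.23 in the venous gate. Spock2 (35.6) and Slc16a1 (4.03) of the capillary list were also highest in the capillary gate. Others of that list were not. Rgcc was highest in the fenestrated gate (21.3 against 3.09 in the capillary gate). Tfrc (5.96 against 4.64) and Car4 (13.1 against 10.1) were higher in venous than in capillary cells. Plvap was required for the fenestrated gate and Mfsd2a counted towards the capillary gate, so their levels there are no independent check of these gates. Capillary cells had to show no marker of the other gates and were the shallowest, with a median of 2788 UMIs against 5552 arterial, 5220 venous and 4937 fenestrated. The same 16 immediate-early genes summed to 101 UMIs per 10000 in arterial, 113 in venous, 135 in fenestrated and 69.1 in capillary cells. Since there is 1 library, no test was made, cells are not replicates, and the 95% exact binomial (Clopper-Pearson) intervals cover counting error only. Doublets were not called, and 131 endothelial barcodes met the markers of more than 1 vessel class.

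Klf2 was richest in arterial cells, at 27.4 UMIs per 10000 (interval 27.1 to 27.8). It stood at 23.6 (23.3 to 24.0) in venous, 20.8 (20.4 to 21.2) in capillary and 20.6 (19.6 to 21.6) in fenestrated cells, and at 25.0 in all endothelial cells. Fenestrated and capillary cells could not be told apart within counting error. The ratio of arterial to capillary cells was 1.32 and lay between 1.18 and 1.42 under 6 other settings. The ratio of venous to capillary cells was 1.14 and lay between 0.86 and 1.14, on both sides of equality, so no order of these 2 gates is given for Klf2.

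Klf4 had the same highest gate. Arterial cells held 13.7 per 10000 (13.5 to 14.0), venous 10.8 (10.6 to 11.1), fenestrated 10.8 (10.1 to 11.5) and capillary 10.7 (10.4 to 10.9). The last 3 gates overlapped in their intervals. The arterial excess over capillary cells was 1.29-fold, between 1.02-fold and 1.37-fold under other settings, and the 1.02 came from cells of 3000 to 6000 UMIs. In that depth window, chosen after the gates' depths were seen, Klf4 stood at 11.1 in arterial and 10.9 in capillary cells with overlapping intervals, while Klf2 stood at 24.8 and 21.1 without overlap. Klf4 there stood at 11.3 (9.98 to 12.7) in 54 fenestrated cells, so arterial cells were not its highest gate. Venous cells held 8.22 (7.86 to 8.59) of Klf4, below capillary cells without overlap. The venous to capillary ratio of Klf4 was 1.01 and ran from 0.76 to 1.04 under other settings.

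Klf6 was lower in fenestrated cells, at 3.72 per 10000 (3.31 to 4.17, from 292 UMIs), than in arterial (7.85, 7.66 to 8.04), venous (7.05, 6.85 to 7.25) or capillary cells (6.88, 6.66 to 7.10). The ratio of fenestrated to capillary cells was 0.54 and stayed between 0.43 and 0.62 under the 6 other settings. It was the ratio to the capillary gate farthest from 1 among the 8 genes. The fenestrated gate held the highest immediate-early sum and the lowest Klf6.

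Klf7 ran the other way. Fenestrated cells held 5.29 per 10000 (4.79 to 5.82, from 415 UMIs), capillary 4.16 (3.99 to 4.33), arterial 3.41 (3.29 to 3.54) and venous 3.36 (3.22 to 3.50). Arterial and venous cells overlapped and the other gates stood apart. The ratio to capillary cells was 1.27 in fenestrated cells (1.14 to 1.43 under other settings), 0.82 in arterial (0.73 to 0.93) and 0.81 in venous cells (0.74 to 0.91). Each kept its side of 1 in all 6. At 3000 to 6000 UMIs, however, capillary cells held 3.92 (3.69 to 4.16) of Klf7. That interval overlapped those of fenestrated (4.93, 4.09 to 5.90), arterial (3.64, 3.42 to 3.86) and venous cells (3.58, 3.35 to 3.83). Among cells without a UMI of Fos, Fosb, Egr1 or Atf3, the fenestrated and capillary intervals also overlapped.

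**Figure D3:**
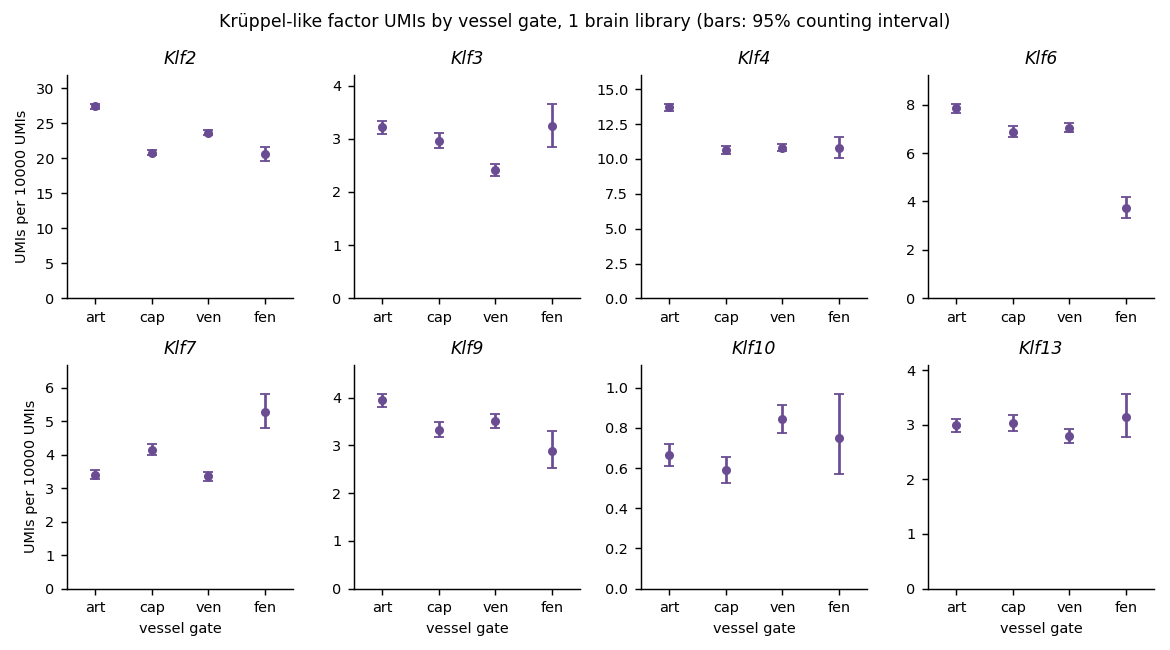
UMIs per 10000 (vertical axis, from 0) of each Krüppel-like factor in the arterial (art), capillary (cap), venous (ven) and fenestrated (fen) gates of 1 brain library, with bars for the 95% counting interval. Arterial cells are highest for Klf2 and Klf4, and fenestrated cells are lowest for Klf6 and highest for Klf7.

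From the highest to the lowest gate, Klf3 differed 1.34-fold, Klf9 1.36-fold and Klf13 1.13-fold. Klf2 differed 1.33-fold and Klf4 1.29-fold in the same way. Klf3 was lowest in venous cells, at 2.41 per 10000 (2.29 to 2.53) against 2.96 (2.82 to 3.11) in capillary, 3.22 (3.10 to 3.34) in arterial and 3.24 (2.85 to 3.66) in fenestrated cells, and its ratio of venous to capillary cells of 0.81 stayed between 0.77 and 0.86. Klf9 was highest in arterial cells at 3.94 (3.81 to 4.08), followed by 3.50 (3.37 to 3.65) in venous, 3.33 (3.18 to 3.49) in capillary and 2.89 (2.53 to 3.29) in fenestrated cells. The arterial to capillary ratio of Klf9 was 1.18, between 1.08 and 1.23 in other settings. Klf13 lay between 2.79 in venous and 3.15 in fenestrated cells, and neighbouring gates in that order overlapped.

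Klf10 was the sparsest member, with 59 UMIs in the fenestrated gate. It stood at 0.84 per 10000 (0.78 to 0.91) in venous, 0.75 (0.57 to 0.97) in fenestrated, 0.66 (0.61 to 0.72) in arterial and 0.59 (0.53 to 0.66) in capillary cells. The venous level was 0.54 when cells with a UMI of Fos, Fosb, Egr1 or Atf3 were left out and 0.55 at 3000 to 6000 UMIs. In fenestrated cells the same settings gave 1.06 (0.66 to 1.62, 48 cells) and 0.50 (0.26 to 0.87, 54 cells), and the ratio to capillary cells ran from 0.91 to 2.10. The venous to capillary ratio of 1.43 ran from 1.00 to 1.59 under other settings.

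**Figure D4:**
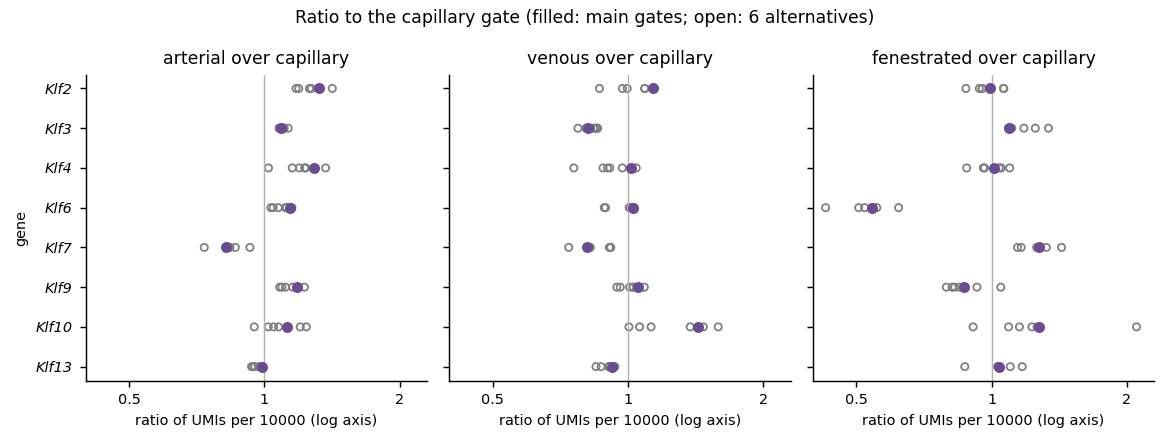
Ratio of UMIs per 10000 to the capillary gate (horizontal log axis, line at 1) for each of the 8 genes (vertical axis) in arterial, venous and fenestrated cells, with a filled point for the gates as used and open points for 6 other settings. Klf6 and Klf7 in fenestrated cells lie away from 1 on opposite sides in every setting, while Klf2 and Klf4 in venous cells fall on both sides.

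Within brain endothelium, Klf2 and Klf4 were higher in cells with more immediate-early transcripts. Cells of 3000 to 6000 UMIs were divided by their UMIs of Fos, Fosb, Egr1 and Atf3 into 1982 cells with 0, 969 with 1 to 2, 391 with 3 to 9 and 354 with 10 or more. This division was made from measured values after the data were seen and is a description. Klf2 stood at 18.0, 20.3, 26.7 and 40.0 UMIs per 10000 in these classes in turn, and Klf4 at 8.77, 9.41, 13.2 and 18.8. Klf10 went from 0.50 to 0.99 and Klf6 from 6.51 to 8.66 between the first and the last class. Klf9 went from 3.43 to 4.10 and Klf13 from 2.85 to 3.08, while Klf3 went down from 3.05 to 2.60 and Klf7 from 3.71 to 3.26. Depth also differed between the classes, with medians of 4186, 4442, 4668 and 5176 UMIs.

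In the cells of this window with no UMI of those 4 genes, Klf2 was still higher in 344 arterial cells, at 21.0 per 10000 (20.3 to 21.7), than in 365 capillary cells, at 17.1 (16.5 to 17.8). The intervals of Klf4 overlapped, at 9.51 (9.02 to 10.0) and 9.41 (8.92 to 9.91). In 290 such venous cells Klf2 stood at 15.6 and Klf4 at 6.97 per 10000, below the capillary values.

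**Figure D5:**
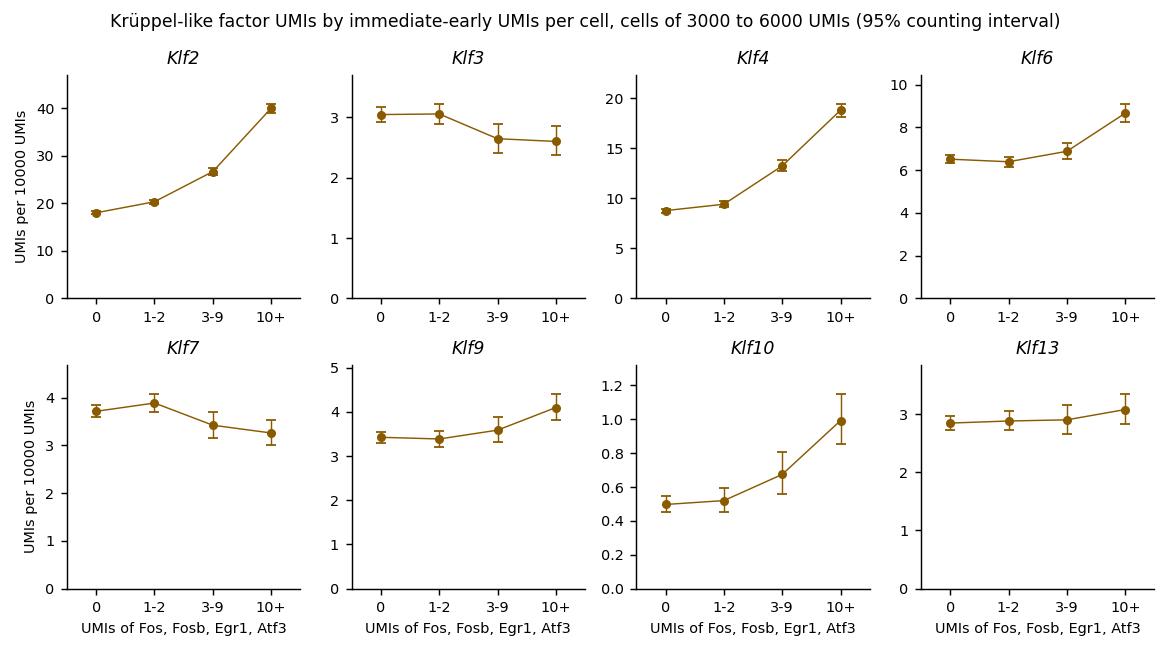
UMIs per 10000 (vertical axis, from 0) of each Krüppel-like factor by the number of Fos, Fosb, Egr1 and Atf3 UMIs in a cell (horizontal axis), in brain endothelial cells of 3000 to 6000 UMIs, with bars for the 95% counting interval. Klf2 goes from 18.0 to 40.0 and Klf4 from 8.77 to 18.8, whereas Klf3 and Klf7 are slightly lower in the last class than in the first.

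Levels per 10000 UMIs also changed with the depth of a cell. From 1563 cells under 2000 UMIs to 1084 cells of 8000 or more, Klf2 went from 14.3 to 29.4 and Klf4 from 7.40 to 15.3, while Klf7 went from 4.29 to 3.44. The immediate-early sum went from 32.3 to 159 over the same cells. The capillary gate is the shallowest, and the part of depth in the ratios to it was tested only by the settings given above.

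Among pairs of the 8 genes, Klf2 and Klf4 had the highest Spearman correlation across cells, 0.34 over 3696 cells each thinned to 3000 UMIs, and Klf2 with Klf6 followed at 0.13. The remaining pairs lay between -0.01 and 0.09. These are descriptions, since all cells come from 1 library. Transcripts of the family were also found in 239 barcodes with at least 50% hemoglobin, which were outside the gates: of their other UMIs, Klf2 took 17.1 and Klf4 8.65 per 10000. The same barcodes held the endothelial genes Cldn5 at 31.9 and Flt1 at 46.3 per 10000, against 45.7 and 60.7 in the endothelial cells.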

How the data were processed

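Bulk values were raw counts per gene symbol deposited by the authors, per the file headers, and single-cell values were deposited UMI counts. The submitters' processing notes name Cell Ranger 1.2.0, HTSeq 0.6.1 and TopHat among other tools and give them no roles. For neither table is a build or strand setting given in the sources used here. The ATAC-seq libraries were not used here.

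Libraries were grouped by the tissue in the labels. edgeR 4.0.16 in R 4.3.3 (filterByExpr, TMM, 1 robust quasi-likelihood fit over 9 libraries) tested 13216 genes with Benjamini-Hochberg adjustment. SE is the absolute log2 fold change over the square root of F. The common biological coefficient of variation was 0.766. The labels call the libraries biological replicates without naming animals, so a p-value measures only the spread between libraries, which may be technical. The scripts were tested on simulated data.

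Rates per 10000 UMIs pooled all UMIs of a gate. Arterial and venous gates needed 2 markers of their own list and at most 1 of each other vessel list, except the capillary list. Capillary cells needed 2 capillary markers and none of the others, and fenestrated cells needed Plvap and 1 further marker. Removed cell types were mural, glial, neuronal, epithelial, fibroblast, leukocyte and hepatocyte.

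The 8 genes, the lists and the gates were chosen with earlier results of these data known. Named genes were the 8 genes, called relatives, up to 3 called genes with the largest fold per list and comparison, and the 2 most alike per gene. The text gives part of these. Alternatives were DESeq2 1.42.0, library size without TMM, no filter, adjusted p alone, 2 tissues at a time, the replicate number as a block, each library left out, and other gates or depths. The depth window, the removal of Rn45s and Malat1, the immediate-early and depth classes and the hemoglobin-rich barcodes were chosen after seeing the data.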

Additional observations from a re-analysis of the deposited data

How the results depend on the processing

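The numbers of the 8 genes called, 1 between brain and lung, 3 between brain and liver and 4 between lung and liver, were also 1, 3 and 4 with DESeq2, without a filter, with adjusted p alone and without Rn45s and Malat1. They were 1, 3 and 5 with library size alone, which added Klf6 between lung and liver (log2 1.34, edgeR adjusted p = 0.0304) and moved the median of all genes by 0.17 for brain over liver and 0.22 for lung over liver. Fits of 2 tissues at a time gave 1, 3 and 3. With single libraries left out the numbers ran from 1 to 2, from 3 to 3 and from 2 to 4. With the replicate number as a block they were 1, 3 and 4, and over all genes 1440, 1870 and 1660. Deviations of libraries with the same number correlated at -0.002 to 0.07 and those with different numbers at -0.06 to 0.05, so the numbers were not taken to pair the samples. No called gene changed sign, while 3 values near 0 that were not called did: Klf10 between brain and lung, Klf7 between brain and liver, and Klf3 between lung and liver. DESeq2 called 2595, 3077 and 2973 genes in all, against 1625, 2137 and 1991.

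Taking Rn45s and Malat1 out of the totals moved 17 of 24 mean CPM levels by more than 1 SD (Klf4 in brain to 630 CPM). Of 192 gate levels, 87 moved beyond their counting interval. Lung replicate 2, with the fewest counts, limits the precision in lung, and the 151 fenestrated cells limit that gate.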
